A study of Mus musculus with 4 samples.

Results

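The cyclin-dependent kinase inhibitors of the mouse were followed gene by gene in single cells sorted from hindlimb muscle. All 7 members of the CIP/KIP and INK4 families, *Cdkn1a*, *Cdkn1b*, *Cdkn1c*, *Cdkn2a*, *Cdkn2b*, *Cdkn2c* and *Cdkn2d*, were found by symbol among the 32285 genes of the count matrices. They were listed by name and not by a cut on measured values, but with earlier results of these data known. The study asked what becomes of muscle stem cells (MuSCs) that lose α-catenin, a protein that ties cadherin junctions to the actin cytoskeleton. Control mice carried a Pax7-CreERT2 allele and a Rosa26-tdTomato reporter with no floxed α-catenin allele. The α-cdKO mice carried the same Pax7-CreERT2 allele and reporter and were fl/fl at both Ctnna1 and Ctnna3. All mice were C57BL/6J, 3 to 4 months old, and were taken 14 days after tamoxifen, which both genotypes received. Cre was driven by *Pax7*, so recombination was limited to cells that expressed *Pax7* at the time of tamoxifen and their progeny, and each of the 4 samples (2 per genotype) was a pool of 2 littermates. Live tdTomato+ cells were captured with 10x Genomics 3′ chemistry, which counts each captured RNA molecule once through a unique molecular identifier (UMI).

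The 4 libraries held between 46099310 and 74921651 UMIs. A cell was kept if it had 1000 UMIs or more, 400 genes or more and less than 15% of its UMIs from mitochondrial genes. In the order control 1, control 2, α-cdKO 1 and α-cdKO 2, which all lists of values keep to, this left 5484, 5354, 9786 and 8166 cells (28790 in all), with median depths of 7723.5, 8075, 6452.5 and 7682.5 UMIs. Only 101 barcode sequences occurred in more than 1 library. In the myogenic cells *Pax7* stood at 50.6 to 119 CPM (UMIs of the gene scaled to 1000000 UMIs in all) and *Myod1* at 465 to 759 CPM, while *Ptprc*, which marks leukocytes, and *Pdgfra*, which marks fibroadipogenic cells, stayed under 0.24 CPM. *Pecam1*, which marks endothelial cells, stood at 3.90 to 5.81 CPM. *Pdgfra* does not stand for all fibroadipogenic markers. Its list of 6 (with *Dcn*, *Lum*, *Col1a1*, *Col3a1* and *Smoc2*) summed to 257 to 2495 CPM per sample in the myogenic clusters described below. A list of 5 mural markers (*Rgs5*, *Acta2*, *Myh11*, *Abcc9* and *Kcnj8*) summed to 43.4 to 2127 CPM there, highest in differentiated-like cells. The source of these counts was not tested. *Ctnna1* stood at 91.1, 74.8, 79.3 and 75.6 CPM and *Ctnna3* at 1, 2, 2 and 7 UMIs. Counts at the 3′ end need not fall in the floxed part of a gene, so they do not check the deletion. The libraries differed in sex makeup: cells that held Y-linked but no *Xist* UMIs numbered 4333, 3580, 2840 and 6409 of 5281, 4503, 9398 and 7981 myogenic cells.

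Inhibitors of cyclin-dependent kinases hold cells out of the division cycle. The CIP/KIP proteins p21 (*Cdkn1a*), p27 (*Cdkn1b*) and p57 (*Cdkn1c*) bind a broad range of cyclin and kinase pairs, whereas the INK4 proteins p16 (*Cdkn2a*), p15 (*Cdkn2b*), p18 (*Cdkn2c*) and p19 (*Cdkn2d*) bind CDK4 and CDK6 and keep cyclin D away from them. In muscle, p27 is known as a label of slowly dividing stem cells, p21 and p57 act at cell cycle exit during differentiation, and p16 is known for its rise in aged satellite cells. *Cdkn2a* also encodes p19Arf from a first exon of its own. Both of its transcripts end in the same 3′ exons, so the 3′ counts cannot tell p16 from p19Arf.

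Positions are those of GRCm38 with GENCODE vM21. The INK4 genes *Cdkn2a* (ENSMUSG00000044303, chr4:89274471-89294653) and *Cdkn2b* (ENSMUSG00000073802, chr4:89306299-89311039) are neighbours on the minus strand, and *Cdkn2c* (ENSMUSG00000028551, chr4:109660876-109667189) lies farther along the same chromosome and strand. *Cdkn2d* (ENSMUSG00000096472) is at chr9:21288410-21291407 on the minus strand. Among the CIP/KIP genes, *Cdkn1a* (ENSMUSG00000023067) is at chr17:29090976-29100727 and *Cdkn1b* (ENSMUSG00000003031) at chr6:134920401-134925513, both on the plus strand, and *Cdkn1c* (ENSMUSG00000037664) is at chr7:143458339-143461050 on the minus strand. No member overlapped another gene on its own strand. *Cdkn1a* and *Cdkn1c* overlapped AC167363.2 and Gm44732 on the opposite strand, which the strand of 10x 3′ reads tells apart.

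*Cdkn2a*, *Cdkn2c* and *Cdkn2d* were the members that stood highest in cycling cells, and their promoters are printed for that reason, with *Cdkn1b*, which did not stand highest there, for contrast. Each runs from 250 bases before to 50 bases after a RefSeq start (GRCm38.p6), 5′ to 3′ on the gene's strand. Capitals mark the letters GCGGGA and GCGCCA on either strand (TCCCGC and TGGCGC when read in reverse complement), which are cores of sites read by E2F, the transcription factor that INK4 proteins keep silent through the retinoblastoma protein.
Cdkn2c, chr4:109666707-109667006: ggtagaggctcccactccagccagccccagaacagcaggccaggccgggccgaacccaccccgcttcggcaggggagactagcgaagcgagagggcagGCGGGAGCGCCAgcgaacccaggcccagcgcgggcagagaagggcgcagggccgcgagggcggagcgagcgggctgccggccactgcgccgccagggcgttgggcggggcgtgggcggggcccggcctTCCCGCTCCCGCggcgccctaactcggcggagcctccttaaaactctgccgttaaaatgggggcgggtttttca
Cdkn2d, chr9:21291160-21291459: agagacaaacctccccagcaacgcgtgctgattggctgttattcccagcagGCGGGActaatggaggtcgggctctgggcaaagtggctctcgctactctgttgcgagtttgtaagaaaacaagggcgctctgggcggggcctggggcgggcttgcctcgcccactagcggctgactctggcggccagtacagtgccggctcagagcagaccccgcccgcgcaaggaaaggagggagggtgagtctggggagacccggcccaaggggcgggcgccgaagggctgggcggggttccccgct
Cdkn2a, p19Arf start, chr4:89294570-89294869: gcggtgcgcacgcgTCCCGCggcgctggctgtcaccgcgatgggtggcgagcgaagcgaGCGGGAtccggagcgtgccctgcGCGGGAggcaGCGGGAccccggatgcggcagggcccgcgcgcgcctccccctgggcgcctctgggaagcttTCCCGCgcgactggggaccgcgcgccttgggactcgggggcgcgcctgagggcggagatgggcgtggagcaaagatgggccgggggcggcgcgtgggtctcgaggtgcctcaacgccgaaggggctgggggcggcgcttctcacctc
Cdkn2a, p16 start, chr4:89282143-89282442: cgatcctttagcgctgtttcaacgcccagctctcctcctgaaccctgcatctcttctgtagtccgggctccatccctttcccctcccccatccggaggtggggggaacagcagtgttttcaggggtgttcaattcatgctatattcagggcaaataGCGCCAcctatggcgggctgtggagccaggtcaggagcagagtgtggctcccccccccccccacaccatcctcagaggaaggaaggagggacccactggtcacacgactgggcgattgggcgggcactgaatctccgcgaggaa
Cdkn1b, chr6:134920151-134920450: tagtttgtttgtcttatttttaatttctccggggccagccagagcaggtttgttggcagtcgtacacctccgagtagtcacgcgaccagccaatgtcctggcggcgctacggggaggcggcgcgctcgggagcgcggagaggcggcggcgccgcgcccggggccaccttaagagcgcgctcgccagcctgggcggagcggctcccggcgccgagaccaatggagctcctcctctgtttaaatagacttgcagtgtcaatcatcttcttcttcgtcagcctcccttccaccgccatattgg
The *Cdkn2c* promoter held GCGGGA 3 times and GCGCCA 1 time, no match overlapping another, and the other RefSeq start of the gene held neither. GCGGGA stood 1 time before *Cdkn2d* and 5 times before the p19Arf start of *Cdkn2a*, and GCGCCA stood 1 time before the p16 start. Neither was in the *Cdkn1b* or *Cdkn2b* window, and GCGCCA stood 1 time at 1 of the *Cdkn1a* starts. Of all 32851 promoters of this length, 20.0% held GCGGGA and 12.5% held GCGCCA. These matches describe letters in a window and not binding.

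To ask which inhibitor marks which state, the cells were clustered with the 7 members left out of the variable genes, and clusters were named from marker genes that did not include them. The myogenic clusters were quiescent-like (4536 cells, *Pax7* and *Hes1*), activated-like (12162 cells, *Myod1* and *Myc*), cycling-like (636 cells), differentiated-like (1321 cells, *Myog* and *Mymk*), a mature-myocyte-like cluster of 359 cells, and a cluster of 8149 cells that no marker list named and whose leading genes were chaperones (*Dnaja4*, *Hsph1*, *Hspd1*). It is called chaperone-led. Of the listed markers, 6 of 9 were raised by 1.5-fold in quiescent-like, 11 of 11 in cycling-like and 7 of 7 in differentiated-like cells. Only 4 of 8 were raised in activated-like cells, and 0 of its list were among its 10 leading genes, so that name is the least firm of these. The mature-myocyte-like cluster was named from 11 of 11 mature muscle markers. It also held *Myod1* at 669 ± 183 and *Myf5* at 287 ± 49.0 CPM, near the 854 ± 232 and 308 ± 53.4 of activated-like cells. Its differentiated list, with *Myog* and *Mymk*, summed to 36.0 to 118 CPM per sample. The name thus describes its muscle RNA and need not mean mature myocytes. The named clusters also had leading genes outside their lists: *Fos*, *Jun* and the heat shock gene *Hspa1a* in quiescent-like cells, the chemokines *Cxcl3*, *Cxcl2* and *Cxcl5* in activated-like cells, and *S100a8* and *S100a9*, from 1 cell, in cycling-like cells. Each cell enters the clustering with its whole transcriptome, so levels between clusters are given as descriptions with the SD over the 4 samples and no test. The level of a member is its UMIs over all UMIs of that sample and cluster.

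Each of 6 members had 1 cluster in which it was highest in all 4 samples, as the plot of CPM by cluster shows. *Cdkn1c* stood highest in differentiated-like cells, *Cdkn1a* in activated-like cells, *Cdkn2a*, *Cdkn2c* and *Cdkn2d* in cycling-like cells, and *Cdkn1b*, by a narrow margin, in differentiated-like cells. No member stood highest in quiescent-like cells. *Cdkn2b* was counted in only 250 UMIs over the whole series and had no common peak, with 0 to 4.80 CPM in each sample of these 6 clusters.

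**Figure D1:**
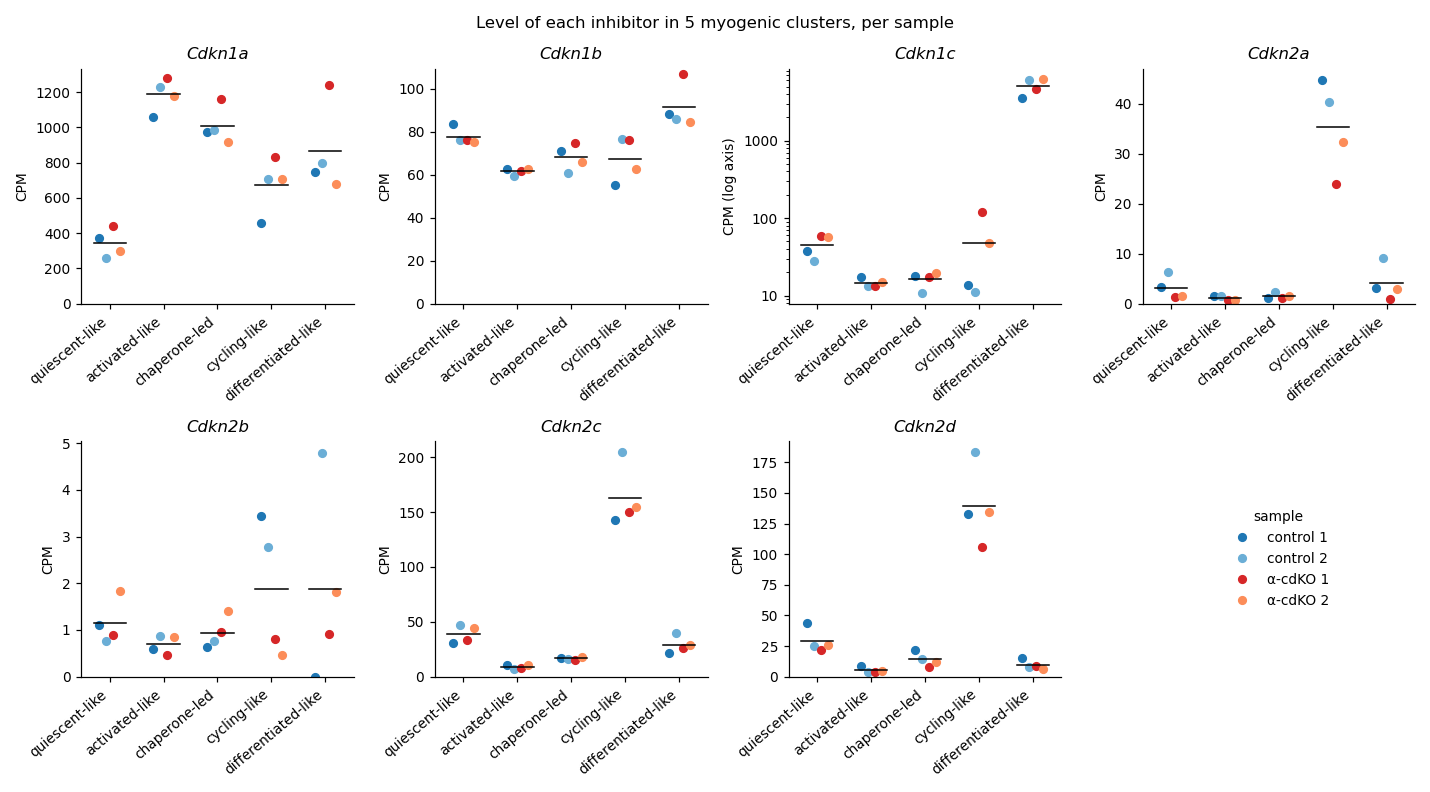
CPM of each inhibitor (vertical axes, *Cdkn1c* on a log axis) in 5 myogenic clusters (horizontal axes), with 1 point per sample and a bar at the mean of the 4 samples. *Cdkn1c* is highest in differentiated-like cells, *Cdkn1a* is lowest in quiescent-like cells, and *Cdkn2a*, *Cdkn2c* and *Cdkn2d* peak in cycling-like cells in every sample.

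*Cdkn1a*, the p53 target p21, stood at 371, 258, 440 and 298 CPM in quiescent-like cells (342 ± 80.5, SD, n = 4). In activated-like cells it stood at 1057, 1227, 1282 and 1179 CPM (1186 ± 95.7), and the samples of the 2 clusters did not overlap. The mature-myocyte-like cells followed at 1032 ± 83.1 CPM and the chaperone-led cells at 1007 ± 105, which changed places in 2 of 4 samples. The differentiated-like cells at 868 ± 255 and the cycling-like cells at 675 ± 157 came next, each below its neighbour in 3 of 4 samples. Cycling-like exceeded quiescent-like cells in 4 of 4. Of all 230512 *Cdkn1a* UMIs, 49.4% were in activated-like cells and 4.28% in quiescent-like cells, which held 39.9% and 12.1% of all UMIs. The muscle was not injured, and the control samples held 2666 and 1928 activated-like cells against 844 and 901 quiescent-like cells. The paper reports that isolating and sorting MuSCs brings on stress and activation in them. The part of isolation in these *Cdkn1a* levels was not tested.

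The immediate-early gene *Fos*, which is known to rise when muscle is dissociated, was among the leading genes of the quiescent-like cluster. The 876 of its cells without a *Fos* UMI had 204, 121, 279 and 183 CPM of *Cdkn1a* (197 ± 65.1), and the 3660 with *Fos* had 392, 275, 485 and 314 (367 ± 92.9). The cells with *Fos* were higher in 4 of 4 samples. *Cdkn2d* moved the same way, from 16.4 ± 3.63 to 30.9 ± 10.4 CPM, in 4 of 4 samples. Cells without *Fos* were also shallower, with a median of 4500 UMIs against 6236. *Cdkn2a* was lower in cells with *Fos* in 4 of 4 samples (means of 6.11 and 2.75 CPM), and *Cdkn1b*, *Cdkn1c* and *Cdkn2c* moved in different directions in different samples.

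*Cdkn1b*, the gene of p27, varied least. It stood at 88.6, 85.9, 107 and 84.5 CPM in differentiated-like cells (91.5 ± 10.4), at 77.8 ± 3.8 in quiescent-like, 68.4 ± 6.05 in chaperone-led, 67.6 ± 10.6 in cycling-like and 61.6 ± 1.49 in activated-like cells. The order differentiated-like, quiescent-like, chaperone-led held in 4 of 4 samples. Each later neighbouring pair, down to mature-myocyte-like cells (57.8 ± 9.15), kept its order in only 2 of 4 samples, and not in the same ones. Within the differentiated-like cluster the level was carried by its 686 cells with no *Myog* UMI, which had 97.6, 132, 125 and 93.7 CPM, against 76.1, 62.7, 88.5 and 78.4 in the 635 cells with *Myog*.

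*Cdkn1c*, the imprinted gene of p57, was almost confined to 1 state: 93.9% of its 95723 UMIs were in differentiated-like cells, which held 7.25% of all UMIs. It stood there at 3508, 6130, 4686 and 6202 CPM (5131 ± 1288), against 14.7 ± 2.02 in activated-like and 16.4 ± 3.86 in chaperone-led cells. Quiescent-like cells had 38.0, 27.8, 59.4 and 56.7 CPM (45.5 ± 15.1), above the chaperone-led and the activated-like cells in 4 of 4 samples. Cycling-like cells had 13.8, 11.1, 120 and 47.4 CPM, so that the 2 control samples lay below the 2 α-cdKO samples.

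Among the INK4 genes, *Cdkn2c* stood at 143, 205, 150 and 155 CPM in cycling-like cells (163 ± 28.1). Quiescent-like cells came next with 30.3, 47.5, 33.9 and 43.9 CPM (38.9 ± 8.16), above differentiated-like cells (29.1 ± 7.75) in 4 of 4 samples, and activated-like cells were lowest at 9.05 ± 2.10. *Cdkn2d* had the same order at its ends, with 133, 183, 106 and 134 CPM in cycling-like cells (139 ± 32.1), 43.5, 25.4, 21.8 and 25.6 in quiescent-like cells (29.1 ± 9.78) and 5.22 ± 2.20 in activated-like cells. Both genes were thus higher in quiescent-like than in activated-like cells in 4 of 4 samples, the reverse of *Cdkn1a*. *Cdkn2a* stood at 44.8, 40.4, 23.9 and 32.3 CPM in cycling-like cells (35.3 ± 9.20) and between 0.672 and 9.19 CPM in every sample of the quiescent-like, activated-like, chaperone-led and differentiated-like cells. Cycling-like cells held 4.30% of all UMIs but 44.8% of the 669 *Cdkn2a*, 29.2% of the 5591 *Cdkn2c* and 31.0% of the 4128 *Cdkn2d* UMIs.

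Depth differed between the myogenic clusters, from a median of 4931 UMIs in mature-myocyte-like and 5846.5 in quiescent-like to 15871 in cycling-like cells, so the share of cells with a UMI was also taken after each cell was thinned to 2000 UMIs. Intervals are exact 95% binomial intervals over pooled cells and cover counting error only. *Cdkn1a* was then found in 34.2% of quiescent-like cells (32.7 to 35.6%) and 82.5% of activated-like cells (81.8 to 83.1%), against 15.7% in the mature-muscle-like cells that were set aside, whose own median depth was 3152.5 UMIs. *Cdkn1c* was found in 52.7% of differentiated-like cells (49.9 to 55.4%), 6.02% of quiescent-like cells (5.34 to 6.77%), 2.73% of activated-like cells (2.45 to 3.04%) and 5.84% of the mature-muscle-like cells. The quiescent-like share thus lay close to that of another cell type. *Cdkn2c* was found in 24.7% of cycling-like cells (21.3 to 28.3%), 7.07% of quiescent-like cells (6.33 to 7.86%) and 1.95% of mature-muscle-like cells. *Cdkn2d* was found in 18.1% of cycling-like cells (15.1 to 21.3%) and 5.14% of quiescent-like cells (4.50 to 5.83%), and the latter share lay close to the 4.33% (3.11 to 5.85%) of mature-muscle-like cells. *Cdkn2a* was found in 5.00% of cycling-like cells (31 of 620), in 0.591% of quiescent-like cells and in 0 of 169 endothelial-like cells, a count that allows at most 1.78% at this depth (without thinning, 2 of 179 held a UMI). Without thinning, the shares of quiescent-like cells were 54.6% for *Cdkn1a*, 13.9% for *Cdkn1c*, 18.9% for *Cdkn2c* and 13.8% for *Cdkn2d*, and the share of cycling-like cells with *Cdkn2a* was 31.0%.

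The differences were tested with gates that use none of the members, each splitting every sample into a pair of sums. The *Myog* gate set 859 myogenic cells with at least 1 *Myog* UMI, the factor that starts terminal differentiation, against the rest. The cycling gate took the 582 cells with UMIs of at least 2 of *Mki67*, *Top2a*, *Cdk1*, *Ccnb1* and *Birc5*. The *Pax7* gate set cells with *Pax7* and no *Myod1* UMI against cells with *Myod1* and no *Pax7* UMI. Sums were compared with edgeR's quasi-likelihood test with the sample as a block, and p-values were adjusted over all genes. Each gate moved much of the transcriptome: 51.9% of 12870 genes passed an adjusted p of 0.05 in the *Myog* gate (25.6% higher, 26.4% lower), 52.6% of 12991 in the cycling gate (26.0% higher, 26.5% lower) and 47.5% of 11918 in the *Pax7* gate (22.8% higher, 24.7% lower). The members' counts of 3, 6 and 5 of 7 are read against those shares. Because every sample enters both sides of a gate, n is 4 pairs.

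In cells with *Myog*, *Cdkn1c* stood at 6824, 7258, 7329 and 8125 CPM, and in those without at 22.5, 15.1, 54.5 and 30.1. Every gated sum thus lay far above every other, with a log2 difference of 7.84 (SE 0.21, edgeR adjusted p = 2.54e-15). *Cdkn1a* had 644, 692, 1040 and 605 CPM with *Myog* and 933, 964, 1113 and 934 without, lower in 4 of 4 samples (log2 difference -0.65, SE 0.08, edgeR adjusted p = 2.79e-06). *Cdkn2d* was lower in 3 of 4 samples (13.4, 22.2, 14.1 and 9.35 CPM against 19.2, 16.9, 16.7 and 14.4), and its log2 difference of -0.41 (SE 0.16, edgeR adjusted p = 0.0424) did not hold without control 1 (-0.34, adjusted p = 0.117), α-cdKO 1 (-0.37, adjusted p = 0.157) or α-cdKO 2 (-0.31, adjusted p = 0.213). *Cdkn2c* had a log2 difference of 0.36 (SE 0.15, edgeR adjusted p = 0.0517), which passed the threshold without control 1 (0.46, adjusted p = 0.0126) or α-cdKO 1 (0.53, adjusted p = 0.0162). The differences of *Cdkn1b* (-0.03), *Cdkn2a* (0.17) and *Cdkn2b* (0.56) did not pass.

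In cycling cells 3 of the 4 INK4 genes rose, and *Cdkn2b* (log2 difference 0.03, SE 0.50, edgeR adjusted p = 0.968) did not pass. *Cdkn2c* had 147, 206, 158 and 171 CPM in the gate and 15.7, 18.7, 15.7 and 19.4 outside (log2 difference 2.77, SE 0.10, edgeR adjusted p = 2.22e-12). *Cdkn2d* had 133, 184, 112 and 145 CPM in the gate and 17.6, 11.2, 7.89 and 10.7 outside (log2 difference 3.15, SE 0.15, edgeR adjusted p = 1.17e-10). *Cdkn2a* had 45.6, 41.0, 25.2 and 31.4 CPM in the gate and 1.72, 3.05, 1.01 and 1.40 outside (log2 difference 3.84, SE 0.20, edgeR adjusted p = 3.42e-10). For each of these genes the lowest gated sample lay above the highest ungated one. *Cdkn1a* fell, from 931, 958, 1131 and 922 CPM outside to 495, 737, 852 and 741 in the gate (log2 difference -1.02, SE 0.10, edgeR adjusted p = 3.96e-07).

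*Cdkn1c* was also lower in the cycling gate, with 15.8, 95.2, 130 and 51.1 CPM against 189, 399, 578 and 455 (log2 difference -3.04, SE 0.17, edgeR adjusted p = 7.37e-10). The cells outside the gate include the differentiated ones, and with all *Myog* cells left out the difference was -0.82 (SE 0.21, edgeR adjusted p = 0.00467). The sums then stood at 15.8, 9.71, 32.1 and 47.1 CPM in the gate and 22.6, 15.3, 56.5 and 29.7 outside, lower in 3 of 4 samples and higher in α-cdKO 2. *Cdkn1b* depended on the scaling: its log2 difference was -0.44 (SE 0.09, edgeR adjusted p = 0.00101) with TMM factors and 0.08 (adjusted p = 0.462) when sums were scaled to total UMIs, and its CPM was higher in the gate in 3 of 4 samples. That scaling moved the median log2 difference of all genes from -0.01 to 0.51 in this gate and from -0.04 to 0.16 in the *Myog* gate. With it, 6262 genes were higher and 1367 lower in the cycling gate, against 3383 and 3446 with TMM, and 4390 were higher and 2365 lower in the *Myog* gate, against 3289 and 3392. *Cdkn2a*, *Cdkn2c*, *Cdkn2d*, *Cdkn1a* and *Cdkn1c* kept their direction and call in the cycling gate under both scalings. The fit without *Myog* cells was run with TMM factors only. In the *Myog* gate, total UMI scaling gave *Cdkn2d* -0.21 (adjusted p = 0.309) and *Cdkn2c* 0.56 (adjusted p = 0.00336).

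Along the step from *Pax7* to *Myod1*, *Cdkn1a* was lower in the *Pax7* cells in 4 of 4 samples, with 868, 748, 960 and 746 CPM against 977, 1047, 1159 and 1008 (log2 difference -0.41, SE 0.05, edgeR adjusted p = 4.52e-06). *Cdkn1b* was higher in *Pax7* cells in 4 of 4 samples, with 72.2, 72.2, 83.8 and 69.6 CPM against 59.6, 60.9, 68.5 and 63.3 (log2 difference 0.17, SE 0.05, edgeR adjusted p = 0.0172), but not past the threshold without α-cdKO 1 (0.16, adjusted p = 0.0877) or without *Myog* cells (0.14, adjusted p = 0.0586). *Cdkn2d* (0.42, SE 0.13, edgeR adjusted p = 0.0159) and *Cdkn2c* (0.29, SE 0.10, edgeR adjusted p = 0.0229) were each higher in 3 of 4 samples. Neither call held when control 1, control 2 or α-cdKO 2 was left out: *Cdkn2d* then had 0.26, 0.38 and 0.39 with adjusted p of 0.141, 0.0523 and 0.0601, and *Cdkn2c* had 0.24, 0.21 and 0.25 with adjusted p of 0.0969, 0.121 and 0.105. The *Pax7* gate keeps cycling cells, in which both genes stood highest. Without *Myog* cells and cells that passed the cycling gate, both were higher in *Pax7* cells in 4 of 4 samples. Mean *Cdkn2c* was then 24.7 CPM in *Pax7* cells and 12.2 in *Myod1* cells, and mean *Cdkn2d* was 17.4 and 7.95. That difference was not tested. *Cdkn1c* had 40.6, 26.0, 77.2 and 40.6 CPM in *Pax7* cells and 623, 905, 1089 and 1074 in *Myod1* cells (log2 difference -4.41, SE 0.14, edgeR adjusted p = 3.32e-12), which shrank to -0.88 (SE 0.16, edgeR adjusted p = 0.000244) without *Myog* cells. *Pax7* cells then had 23.2, 14.2, 30.1 and 24.1 CPM and *Myod1* cells 20.0, 18.1, 71.5 and 53.9, so that control 1 went the other way and the gap lay mostly in the α-cdKO samples. *Cdkn2a* (-0.46) and *Cdkn2b* (0.18) did not pass, although *Cdkn2a* did without control 1 (-0.67, edgeR adjusted p = 0.0322).

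**Figure D2:**
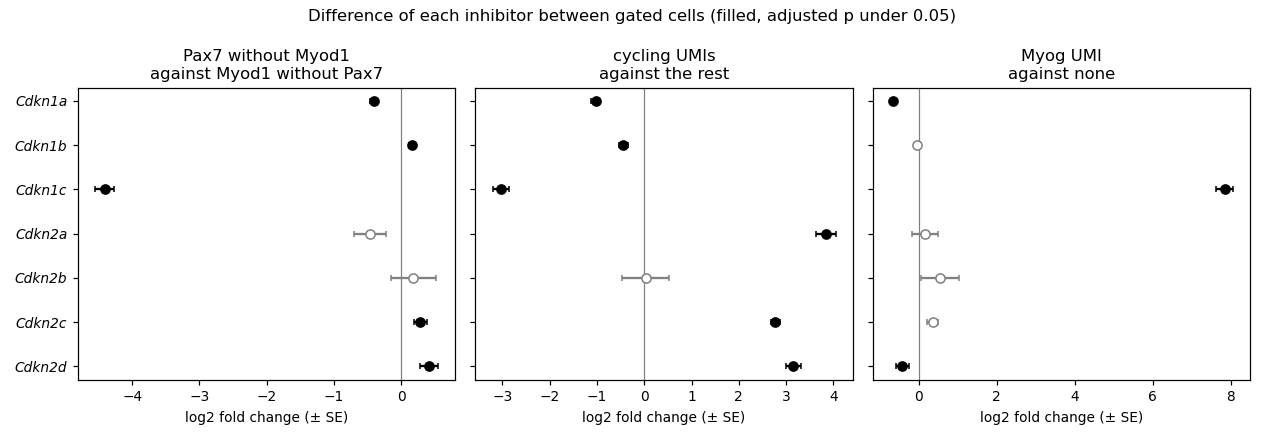
Log2 difference of each inhibitor (horizontal axis) between the cells in a gate and their counterpart, for the *Myog*, cycling and *Pax7* gates, as the edgeR estimate with 1 SE either way and filled points for adjusted p under 0.05. *Cdkn1c* reaches 7.84 in the *Myog* gate, and *Cdkn2a*, *Cdkn2c* and *Cdkn2d* lie between 2.77 and 3.84 in the cycling gate.

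*Cdkn1c* was graded along differentiation. Cells with neither *Myog* nor *Mymk*, the gene of the fusion protein Myomaker, had 22.5, 14.7, 42.4 and 26.7 CPM. The 403 cells with *Myog* but no *Mymk* UMI had 929, 923, 1638 and 1553 CPM (1261 ± 388), and the 456 cells with both had 10942, 10442, 11173 and 11437 CPM (10999 ± 423). No sample of a later step overlapped one of an earlier step. *Cdkn1a* went the other way over the same steps, with means of 986, 882 and 664 CPM, although α-cdKO 1 stayed at 1113, 1089 and 1006. Median depth rose along these steps, from 7355 to 9439 and 15273.5 UMIs.

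Seen per cell, 435 of the 456 cells with *Myog* and *Mymk* (95.4%) held at least 10 *Cdkn1c* UMIs and 11 held none. Of all 859 *Myog* cells, 566 (65.9%) held at least 10 and 175 held none. Conversely, 663 myogenic cells held at least 10 *Cdkn1c* UMIs, of which 566 (85.4%) had a *Myog* UMI and 626 were in the differentiated-like cluster. The 81 such cells with neither *Myog* nor *Mymk* were 6 of 45, 2 of 92, 58 of 338 and 15 of 188 in the 4 samples. Only 11 of the 663 also passed the cycling gate.

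**Figure D3:**
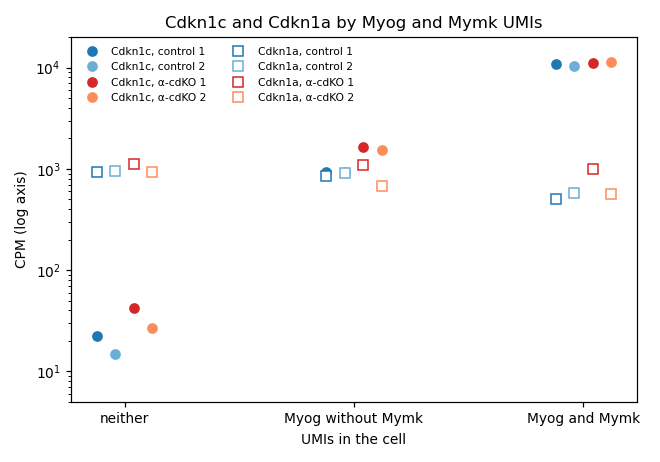
CPM on a log axis of *Cdkn1c* (filled circles) and *Cdkn1a* (open squares) in each of the 4 samples, for myogenic cells with neither *Myog* nor *Mymk*, with *Myog* only, and with both. *Cdkn1c* climbs from 14.7 to 42.4 CPM through 923 to 1638 to above 10400 CPM, while *Cdkn1a* stays between 500 and 1113 CPM.

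Cells that held *Myog* and passed the cycling gate were few (0, 5, 16 and 3). Pooled within a sample, those of control 2, α-cdKO 1 and α-cdKO 2 had 1249, 1696 and 188 CPM of *Cdkn1c* and 312, 168 and 225 CPM of *Cdkn2c*, so the markers of both states were present in the same sums. Such few cells allow no comparison between genotypes, and cells caught as doublets cannot be told apart from single ones here.

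Within the cycling-like cluster, cells were split by whether they held more UMIs of S phase genes (such as *Mcm5*, *Cdc6* and *Tyms*) or of G2/M genes (such as *Top2a*, *Ccnb1* and *Plk1*), 173 against 463 cells. *Cdkn2c* had 43.0, 73.1, 60.5 and 49.3 CPM in the S cells and 222, 248, 175 and 201 in the G2/M cells. *Cdkn2d* had 27.4, 50.6, 29.9 and 38.5 CPM in the S cells and 215, 227, 127 and 177 in the G2/M cells. Both were higher in G2/M in 4 of 4 samples with no overlap between the sides. *Cdkn1b* followed, with a mean of 43.6 CPM against 80.9 and the same direction in 4 of 4 samples, though control 1 had only 14 S cells and 7.82 CPM there. *Cdkn2a*, by contrast, was higher in G2/M in 3 of 4 samples, with 23.5, 39.4, 15.7 and 43.2 CPM in S and 61.6, 40.7, 26.2 and 27.4 in G2/M, and its sides overlapped. *Cdkn1a* was higher in G2/M in 3 of 4 samples (means of 542 and 744 CPM).

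**Figure D4:**
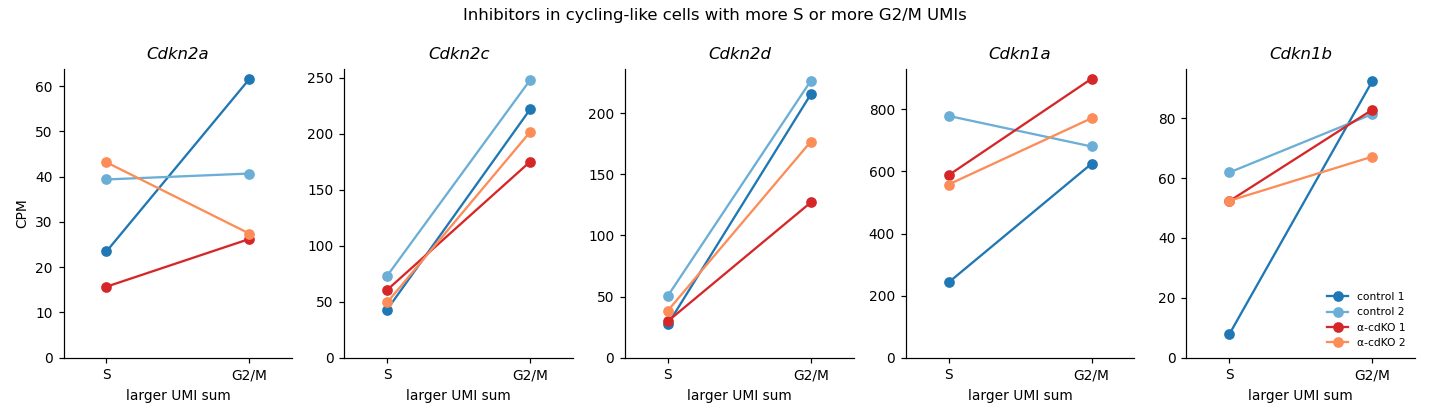
CPM of 5 inhibitors in cycling-like cells with more S phase UMIs and in those with at least as many G2/M UMIs, with a line joining the values of each sample. The lines of *Cdkn2c* and *Cdkn2d* rise in all 4 samples, from at most 73.1 to at least 175 CPM and from at most 50.6 to at least 127 CPM, and those of *Cdkn2a* cross.

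The design then asks whether loss of α-catenin changes the inhibitors. Sums of the 2 α-cdKO and 2 control samples were compared over all myogenic cells and within each named cluster with edgeR, and no member passed an adjusted p of 0.05 in any of the 5 comparisons. Few genes did: 0.178% of 14639 in all myogenic cells, 0.086% of 11624 in quiescent-like, 0.155% of 12231 in activated-like, 0.0448% of 8934 in cycling-like and 0.0103% of 9756 in differentiated-like cells. At an unadjusted p under 0.05 there were 1, 2, 1, 2 and 1 members in these comparisons, where 7.08%, 8.21%, 6.75%, 8.34% and 3.26% of all genes lay, and DESeq2 called 0, 0, 0, 1 and 0 members. All 7 members passed the filter on low counts in all myogenic and in activated-like cells, and 6 did in the others, where *Cdkn2b* dropped out.

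*Cdkn1c* came nearest. In all myogenic cells its controls stood at 187 and 388 CPM and its α-cdKO samples at 541 and 444 (log2 difference 0.77, SE 0.31, edgeR adjusted p = 0.694). Differentiated-like cells numbered 150 of 5281 and 159 of 4503 myogenic cells in the controls, against 673 of 9398 and 339 of 7981. Within differentiated-like cells the difference was 0.22 (SE 0.24, edgeR adjusted p = 1), and the values of the 2 genotypes overlapped. With differentiated-like cells left out it was 0.60 (edgeR adjusted p = 0.572), and among cells holding Y-linked but not *Xist* UMIs it was 0.16 (edgeR adjusted p = 0.998). Of the 150, 159, 673 and 339 differentiated-like cells, 141, 133, 46 and 288 held Y-linked but no *Xist* UMIs. Most of those in α-cdKO 1 thus did not, unlike in the other samples, and the part of sex makeup was not tested.

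Within quiescent-like cells both α-cdKO samples (59.4 and 56.7 CPM) lay above both controls (38.0 and 27.8), with a log2 difference of 0.86 (SE 0.17, edgeR adjusted p = 0.164). Without control 1 the difference was 1.06 and passed (adjusted p = 0.0305). Much of the level came from few cells: those with at least 10 *Cdkn1c* UMIs numbered 1 and 2 in control against 11 and 7 in α-cdKO samples and held 7.25%, 17.0%, 40.1% and 43.2% of the UMIs. The cells below that mark stood at 35.4, 23.2, 36.1 and 32.5 CPM, where the genotypes overlapped. Without the cells that had a *Myog* UMI the difference was 0.39 (SE 0.20, edgeR adjusted p = 0.659).

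In cycling-like cells the sums were thinner, from 30, 80, 404 and 122 cells. *Cdkn1c* had 13.8 and 11.1 CPM in control samples, from 8 and 16 UMIs, against 120 and 47.4 in α-cdKO samples (log2 difference 2.91, SE 0.51, edgeR adjusted p = 0.127). The call was gained with DESeq2 (2.85, adjusted p = 4.57e-05), with no filter on low counts (2.95, edgeR adjusted p = 4.12e-20), without the cells of highest doublet score (2.31, edgeR adjusted p = 0.0399), without α-cdKO 1 (2.03, edgeR adjusted p = 0.000371) and without α-cdKO 2 (3.38, edgeR adjusted p = 7.9e-15). The last pair of fits leave 1 α-cdKO sample to be read with the spread of the controls. Leaving out the cells of highest doublet score took α-cdKO 1 from 120 to 65.1 CPM. The 6 and 3 cells with at least 10 UMIs in the α-cdKO samples held 77.4% and 58.0% of their *Cdkn1c* UMIs, and the remaining cells stood at 27.8 and 20.4 CPM. Without *Myog* cells the difference was 1.54 (SE 0.36, edgeR adjusted p = 0.453). Cells holding Y-linked but not *Xist* UMIs were 26, 65, 34 and 99 of the 30, 80, 404 and 122, a small part only in α-cdKO 1. Among them the difference was 1.77 (SE 0.43, edgeR adjusted p = 0.472). In control 1 a single cell with immune transcripts (*S100a8*, *S100a9*) brought the summed immune markers of the cluster to 19768 CPM, against 1.90 to 13.4 in the other samples, and without such cells the difference was 2.89 (edgeR adjusted p = 0.162). The part of sex makeup and of differentiating cells in these differences was not tested beyond these values.

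*Cdkn2a* rested on very few UMIs. In all myogenic cells it stood at 2.25 and 4.38 CPM in control samples against 3.01 and 2.18 in α-cdKO samples, and in chaperone-led cells at 1.20 and 2.38 against 1.12 and 1.51, and the genotypes overlapped in both. Quiescent-like cells had 3.30 and 6.27 CPM in control samples against 1.42 and 1.63 in α-cdKO samples (log2 difference -1.63, SE 0.43, edgeR adjusted p = 0.342), and 1.58 and 1.56 against 0.714 and 0.672 CPM in activated-like cells (-1.14, SE 0.34, edgeR adjusted p = 0.528). In differentiated-like cells it had 3.15 and 9.19 against 1.04 and 3.01 CPM (-1.66, SE 0.67, edgeR adjusted p = 1), and in cycling-like cells 44.8 and 40.4 against 23.9 and 32.3 CPM (-0.55, SE 0.26, edgeR adjusted p = 0.606). The α-cdKO samples were the lower ones in these 4 clusters, and none of the differences passed. With 2 against 2 samples, such a separation gives p = 0.333 in a two-sided exact permutation test, so it cannot by itself show a genotype difference. The share of all genes that separate in this way was not counted.

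The other members differed less. In cycling-like cells *Cdkn1a* stood at 457 and 705 CPM in control samples against 831 and 706 in α-cdKO samples (log2 difference 0.45, SE 0.19, edgeR adjusted p = 0.577), which passed only without control 2 (0.85, adjusted p = 0.0398). *Cdkn1b* differed by -0.05 to 0.17 with SEs of 0.12 to 0.21 over the 5 comparisons, *Cdkn2c* by -0.16 to 0.25 and *Cdkn2d* by -0.54 to -0.25. The share of cells with a UMI of a member was compared between genotypes with a two-sided exact permutation test, whose smallest possible p with 2 against 2 samples is 0.333, so no share could pass.

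**Figure D5:**
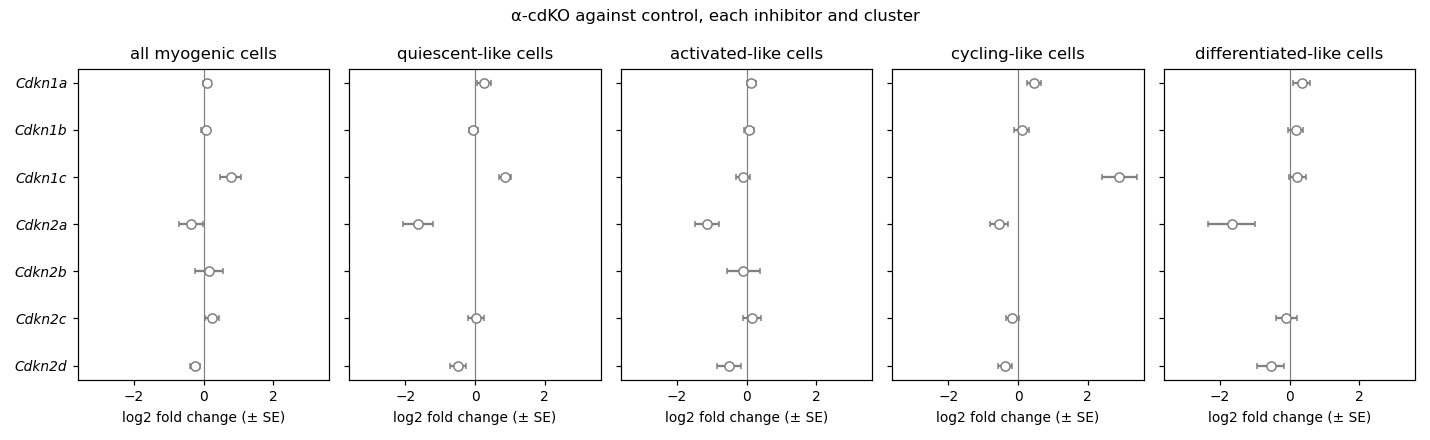
Log2 difference of each inhibitor (horizontal axis) between α-cdKO and control samples in all myogenic cells and in 4 clusters, as the edgeR estimate with 1 SE either way. No adjusted p is under 0.05, and the point farthest from 0 is *Cdkn1c* in cycling-like cells at 2.91.

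Whether the *Myog* gate difference itself depended on genotype was tested with an interaction term, in which 0.0544% of 12870 genes passed. No member did with edgeR or DESeq2, and 2 members had an unadjusted edgeR p under 0.05, as did 6.09% of all genes. *Cdkn1c* had the smaller of these, with a gate difference that was less in α-cdKO samples by 0.90 on the log2 scale (-0.90, SE 0.23, edgeR adjusted p = 0.19). Cells without *Myog* stood at 22.5 and 15.1 CPM in control samples against 54.5 and 30.1 in α-cdKO samples, and those with *Myog* at 6824 and 7258 against 7329 and 8125. The interaction passed without control 1 (-1.29, adjusted p = 9.25e-05), control 2 (-0.57, adjusted p = 0.0489) or α-cdKO 2 (-1.44, adjusted p = 0.0193). *Cdkn2a* had -1.45 (SE 0.57, edgeR adjusted p = 0.69).

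The partners and regulators of the inhibitors were read from a list of 48 genes in the same fits. In the cycling gate 29 of 48 rose and 10 fell (median log2 difference 0.64, against -0.01 for all genes, of which 26.0% rose and 26.5% fell). Among the partners 9 of 10 rose, led by the S and G2 cyclin *Ccna2* (9.56) and the G1/S cyclin *Ccne2* (4.76), and among pocket proteins and E2F factors 8 of 10 rose, including *E2f7* (5.89), *Rbl1* (5.11) and *E2f8* (4.46). *Cdk1*, another partner that rose, helped to define the gate and is no result, although the counts of 9 of 10 and 29 of 48 include it.

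In the *Myog* gate 17 of the 48 rose and 9 fell (median 0.16, against -0.04 for all genes, of which 25.6% rose and 26.4% fell). *Rb1*, the retinoblastoma gene, rose by 2.61 (SE 0.12, edgeR adjusted p = 3.97e-12), and so did *Cdk2* (1.75), *E2f2* (2.05), *E2f8* (3.47) and the p53 target *Trp53inp1* (1.42), while the stress gene *Sesn2* fell by 1.33. Of the other p53 targets in the list, 6 of 12 rose and 3 fell, and *Cdkn1a*, itself a p53 target, fell in this gate.

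In the *Pax7* gate 12 of 47 tested genes were higher and 18 lower (median -0.11, against 0.02 for all genes, of which 22.8% were higher and 24.7% lower). The Notch target *Hes1* was higher by 1.39, and *E2f8* (-3.13), *Ccna2* (-1.80), *Cdk1* (-1.73) and *E2f1* (-1.13) were lower in *Pax7* cells. *Myod1*, which is in the list, defined this gate, so its place in these counts is no result. No gene of the list passed in any of the 5 genotype comparisons with edgeR or DESeq2. At an unadjusted edgeR p under 0.05 there were 5 of 48 in all myogenic, 6 of 42 in quiescent-like, 3 of 44 in activated-like, 6 of 47 in cycling-like and 2 of 42 in differentiated-like cells, beside 7.08%, 8.21%, 6.75%, 8.34% and 3.26% of all genes.

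The genes whose CPM followed each member most closely over 28 profiles of a sample and cluster were found by Pearson's r of log2(CPM + 5). The profiles of a sample share a library and those of a cluster share a state, so r is a description. *Cdkn1c* was most like *Pcp4* (0.957), *Mymk* (0.949) and *Pak3* (0.945). *Cdkn1a* was most like *Nfe2l2* (0.977), *Ptpn1* (0.971) and *Slc4a7* (0.964), and *Cdkn1b* like *Nedd4* (0.886), *9930021J03Rik* (0.873) and *Ankrd12* (0.872). *Cdkn2c* was most like *Atad2* (0.942), *Cbx3* (0.936) and *Lockd* (0.936), a long noncoding RNA transcribed beside *Cdkn1b*. *Cdkn2a* was most like *Smc2* (0.933), *Nsmce4a* (0.928) and *Dtymk* (0.928), and *Cdkn2d* like *Rfc1* (0.899), *Rfc2* (0.897) and *Dut* (0.894). *Cdkn2b*, at a mean of 2.04 CPM, was under the 5 CPM required.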

How the data were processed

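Single-cell libraries were made from sorted tdTomato+ cells, with 30000 cells loaded per sample. The authors processed the reads with Cell Ranger 7.1.0 on GRCm38 (mm10) and deposited raw UMI counts per gene and cell. The submitters' processing notes also list Seurat 4.0.3. Those counts were used as deposited.

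Cells were filtered, and clustered in R 4.3.3 with Seurat 5.3.0 (2000 variable genes without the 7 members, 30 principal components, Louvain resolution 0.2). Samples were integrated with a custom implementation of the Harmony method, not the published package. A cluster was named where at least 3 listed markers were raised by 1.5-fold. Each class of a sample gave 1 sum of counts, and sums were compared with edgeR 4.0.16 (quasi-likelihood, TMM, filterByExpr, Benjamini-Hochberg over all genes tested), without a block for genotype and with the sample as block for the gates. Genotype p-values measure the spread between 2 pools of mice per group. DESeq2 1.42.0 was an alternative, with other scalings, no filter, thinned cells, other clusterings, each replicate left out and cells left out. Scaling to total UMIs, the crossed pairing and the fits without *Myog*, immune, differentiated-like or cycling-like cells were chosen after seeing the data. Scrublet (scanpy 1.11.5) called 1, 5, 0 and 1 doublets, too few to be of use, so doublets were kept, and an alternative left out the top 241, 229, 766 and 533 scores. On simulated counts the test recovered 51% and 85% of genes changed by 1 and 2 on the log2 scale in all myogenic cells (14639 genes), and 66% and 89% in the *Myog* gate (12870 genes). It also called 13 unchanged genes in the former and 11 in the latter.

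The members and lists were chosen with earlier results of these data known. Named beside the 7 members were up to 6 pathway genes per comparison, those with the largest absolute log2 difference among those called, and the 3 most similar genes per member. Over genes, the difference between the control replicates and that between the α-cdKO replicates had correlations of -0.17 to 0.14. These values gave no clear sign that same-numbered samples were paired, but they do not settle it. Mature-muscle-like, endothelial-like and immune-like cells were set aside.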

Additional observations from a re-analysis of the deposited data

How the results depend on the processing

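The genotype count of members called was 0 in all 5 comparisons and kept that value under each alternative in all myogenic, activated-like and differentiated-like cells. In quiescent-like cells it was 2 with no filter on low counts and 2 with the replicate block (*Cdkn1c* and *Cdkn2a*), and 0 to 1 with a replicate left out. In cycling-like cells it was 1 with no filter, with DESeq2, with the replicate block and without the top doublet scores, and 0 to 1 with a replicate left out. For the interaction of the *Myog* gate with genotype it was 1 with total UMI scaling, no filter or thinned cells, and 0 to 1 with a replicate left out. In the *Pax7* gate 5 members were called, 3 with DESeq2 and 3 to 4 with a replicate left out. *Cdkn1b* in the cycling gate reversed to 0.084 with total UMI scaling. In place of the differentiated-like cluster, cells with a *Myog* UMI that did not pass the cycling gate gave means of 77.5 CPM for *Cdkn1b* and 7597 for *Cdkn1c*. The cause of these changes was not tested. Each of the 6 members other than *Cdkn2b* was highest in the same class under every other clustering tried.

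Counts over all genes moved more. Against 26 in all myogenic cells, they ran from 3 to 149, with 122 by DESeq2, 14 with no filter, 13 with the replicate block, 46 without differentiated-, cycling- and mature-myocyte-like cells and 3 to 65 with a replicate left out. Against 10 in quiescent-like cells, there were 281 with no filter, 168 with the block, 19 by DESeq2, 21 at resolution 0.4 and 13 to 45 with a replicate left out. Against 19 in activated-like cells, there were 61 by DESeq2, 41 with the block, 47 with the chaperone-led cells added and 12 to 82 with a replicate left out. Against 4 in cycling-like cells, there were 246 with no filter, 18 by DESeq2, 13 with the block, 6 without the top doublet scores, 7 among cells holding Y-linked but not *Xist* UMIs, 2 with total UMIs or without *Myog* cells, and 26 to 115 with a replicate left out. Against 1 in differentiated-like cells, there were 98 with no filter, 16 by DESeq2, 35 with the block and 19 to 58 with a replicate left out. Against 7 in the interaction, there were 80 with no filter, 45 with at least 2 *Myog* UMIs, 14 with thinned cells, 4 with RLE factors, 3 by DESeq2 and 10 to 95 with a replicate left out. Thinning to 2000 UMIs took the *Myog* gate from 6681 to 3468, the cycling gate from 6829 to 2962 and the *Pax7* gate from 5667 to 2888, and DESeq2 called 3648 in the last. The crossed pairing gave 149 in all myogenic cells and 0 members. *Cdkn2b*, with 250 UMIs, and *Cdkn2a*, with 669, rest on few counts and carry wide counting error, and a fit without a replicate assumes that the lone sample of a genotype varies like the others.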

Other observations

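Endothelial-like and immune-like cells, few as they were in these sorts (179 and 136), also held inhibitors. *Cdkn2d* stood at 75.1 ± 11.6 CPM (SD, n = 4) in endothelial-like and 83.6 ± 39.2 in immune-like cells, against 29.1 ± 9.78 in quiescent-like cells. *Cdkn1c* stood at 158 ± 16.6 CPM in endothelial-like cells, and 24.9% of them (18.5 to 32.1%, exact 95% interval) had a UMI of it after thinning to 2000 UMIs. *Cdkn1a* stood at 1047 ± 196 CPM in endothelial-like cells. The endothelial markers summed to 14.4 to 29.4 CPM in quiescent-like cells, and their part in the inhibitor levels there was not tested.

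Differentiated-like cells with no *Myog* UMI had 112 and 40.3 CPM of *Cdkn1c* in control samples against 605 and 358 in α-cdKO samples, a difference that was not tested.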
